A study of Mus musculus with 4 samples.

Results

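The 32 genes described here encode enzymes of fatty acid oxidation and ketone body metabolism, together with the nuclear receptor PPAR-alpha (Ppara), its partner in fasting gene control Creb3l3, and target genes of the receptor. They were chosen by name: a non-control probe belonged to the group if the gene name in the scanner file equalled that of a member, with Adfp also accepted as Plin2. The array carried 28632 named genes, and all 32 members were among them and were tested. Signal was well above background in all 8 channels for 31 members, and Pdk4 reached that level in 3 of 4 organoid channels.

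Fatty acids are first joined to coenzyme A by acyl-CoA synthetases. Carnitine palmitoyltransferases then carry long chains into mitochondria, where dehydrogenases, hydratases and thiolases shorten them to acetyl-CoA, while peroxisomes shorten the longest chains. PPAR-alpha binds fatty acids and switches on genes of these steps. In the small intestine the pathway is most active in absorptive enterocytes of the villus, and ketone body synthesis in crypts has been linked to stem cell maintenance.

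Expression was compared between freshly isolated small intestinal crypts of 2 mice and organoids grown from the same crypts for 1 week. Per the labels' protocols, crypts were released with 2 mM EDTA and filtered through a 70 µm strainer. For culture, 500 crypts were embedded in 50 µl of Matrigel and fed with medium holding EGF at 10 to 50 ng/ml, Noggin at 100 ng/ml and R-spondin at 500 ng/ml. Both RNAs of a mouse were hybridised together on 2 arrays of opposite dye orientation, so the 4 arrays represent n = 2 mice. The labels give no strain, age, genotype or sex for the mice, and name no drug or transgene for either group. All ratios below are log2 organoid over crypt, given as the mean ± SD of the 2 mouse means, and a gene passed when limma's adjusted p was under 0.05.

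The sample type was checked against marker genes. Among 10 epithelial and crypt markers, all tested, 2 rose (Lgr5 2.29 ± 0.05, a stem cell gene, and Krt18 1.26 ± 0.36) and 3 fell (Lyz1 -2.92 ± 0.11, a Paneth cell lysozyme, Krt8 -0.90 ± 0.15 and Krt19 -0.72 ± 0.05). The other 5 did not pass. Among them Olfm4, also a stem cell gene, had -0.09 ± 0.21 (adjusted p = 0.763, limma), with the mice on opposite sides of 0. Krt8 lost its call with the organoid in Cy5 alone, Krt18 with the organoid in Cy3 alone, and Krt19 in 5 of 11 alternative settings. Of 12 leukocyte markers, 11 were tested and 3 fell. Lyz2 had -2.32 ± 0.18. Cd3g and Cd52 were not well above background in any organoid channel and entered the test through the crypts, so only bounds can be given. The reference was the lowest signal called above background, or the probe's own where higher. With the main processing Cd3g was at least 2-fold lower and Cd52 at least 1.62-fold lower. Limma tested the ratios against 0 and not these bounds (adjusted p = 0.0119 and 0.02, limma). Over the 11 alternative settings the ratio ran from -3.17 to -0.68 for Cd3g and from -3.51 to -0.45 for Cd52. Both lost their call with the mouse as a replicate block (adjusted p = 0.0752 and 0.0563, limma) and with the organoid in Cy3 alone. Of 10 stromal and vessel markers only 3 could be tested, and 1 fell (Acta2 -0.66 ± 0.01), whose call was lost in 6 of 11 alternatives (values from -0.72 to -0.31). In these bulk samples, fewer cells of a type and less RNA per cell cannot be told apart.

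Promoter sequence was taken from RefSeq (build GRCm38.p6), which held windows of 300 bases for 26 of the 32 members, 29 windows in all. They were searched on both strands for the PPAR response element, written here as AGGTCA, any 1 base, and AGGTCA again, allowing 2 mismatches among its 12 fixed letters. It was found in 3 of 29 member windows (10.3%), against 3.86% of all 32851 windows. The 3 windows belong to Creb3l3, Etfa and Plin2 (Adfp), and capitals mark the match. They are shown because Creb3l3 fell whereas Etfa and Adfp did not pass the test. All 3 genes lie on the minus strand, and the windows are at chr10:81092774-81092814, chr9:55512294-55512334 and chr4:86670258-86670298.

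Creb3l3: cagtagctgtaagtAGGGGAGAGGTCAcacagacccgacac
Etfa: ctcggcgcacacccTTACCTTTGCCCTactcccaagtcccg
Plin2: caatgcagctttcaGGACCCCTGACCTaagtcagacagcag

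A match of this kind is a run of letters and was not tested for binding. In Creb3l3 it lies 209 to 197 bases before the start, in Plin2 225 to 213 and in Etfa 77 to 65.

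Most members were lower in organoids than in crypts. The median over the 32 members was -0.46 (mouse 1 -0.48, mouse 2 -0.37), beside 0.02 over all 15538 genes tested. Of the members 10 passed (31.2%, beside 10.9% of all genes), 8 of them lower (5.49% of all genes were called lower) and 2 higher (5.43% of all genes were called higher). The other 22 did not pass. Among the 8 lower members, Pdk4 entered the test only through the crypts. Ratios were below 0 for 26 members (81.2%, beside 45.7% of all genes), and 20 members were lower on all 4 arrays (62.5%, beside 21.7% of all genes). The mice gave the same sign for 27 of the 32 members, beside 68.9% of all genes. No member passed when arrays were centred on the median without loess: the median of all genes then stood at 0.17 and that of the members at -0.12. Under that centring 224 genes (1.44%) passed in all, of which 58.0% were higher, beside 49.7% with loess.

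**Figure D1:**
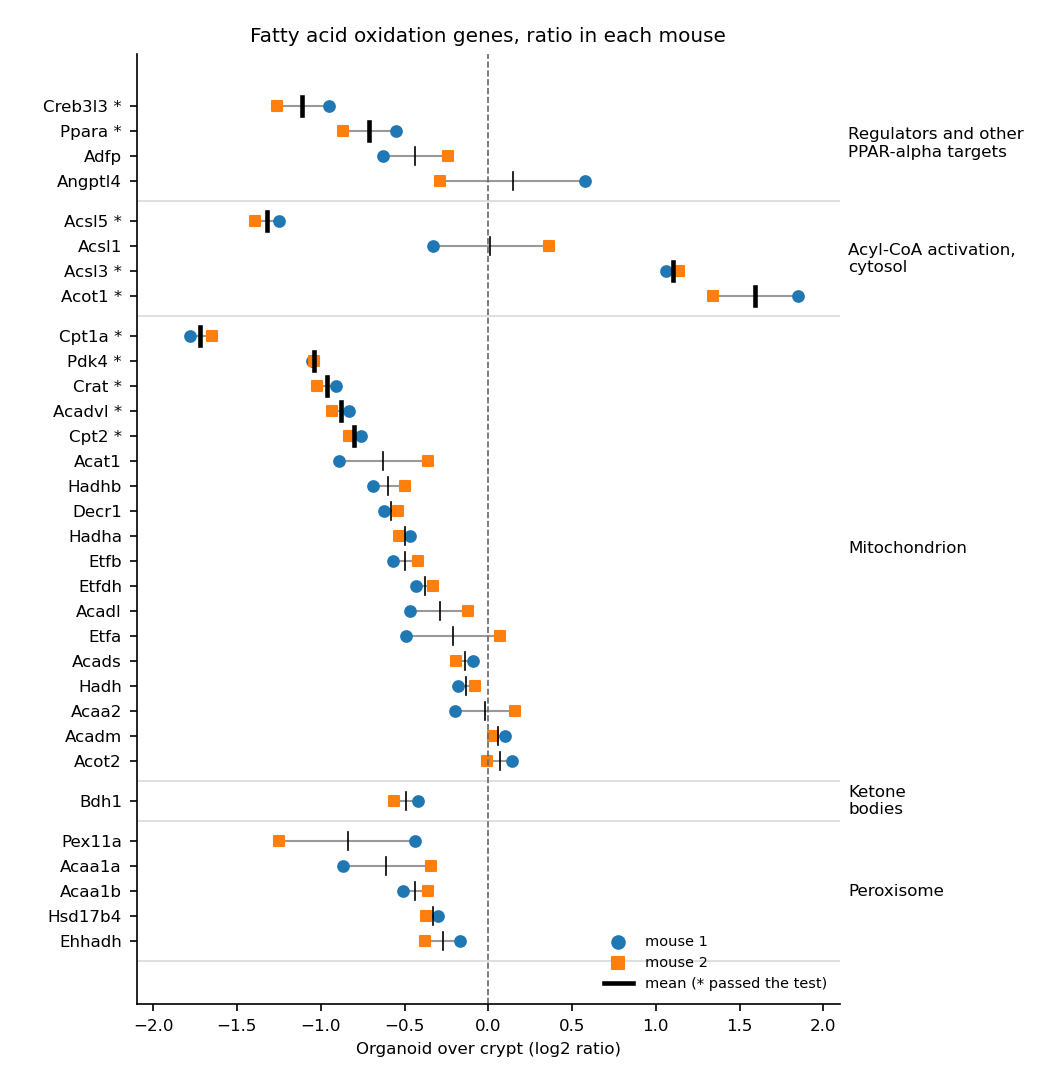
Log2 ratio of organoid over crypt for the 32 members in mouse 1 (circles) and mouse 2 (squares), grouped by role, with Pdk4 and Acat1 shown only among mitochondrial genes. Black bars mark the mean and asterisks the 10 members that passed. Cpt1a lies lowest at -1.72 and Acot1 highest at 1.59.

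Both regulators fell. Ppara, the fatty acid receptor itself, gave -0.56 and -0.54 on the arrays of mouse 1 and -0.98 and -0.76 on those of mouse 2. All 4 arrays were below 0, with a mean of -0.71 ± 0.23 (adjusted p = 0.0428, limma). That call was among the least firm: it was lost with either set of deposited ratios (the scanner software's and the series matrix), in the 2 arrays with the organoid in Cy3, and when probes near background were tested too, that is, without the filter on dim probes. Creb3l3, an enterocyte and liver transcription factor that works with PPAR-alpha, gave -1.07 and -0.83 in mouse 1 and -1.39 and -1.14 in mouse 2. Its mean was -1.11 ± 0.22 (adjusted p = 0.0136, limma), 2.16-fold lower in organoids, and its call was lost without that filter. Among other targets of the receptor, Pdk4 fell (described with the mitochondrial genes). Angptl4, a secreted lipase inhibitor, gave 0.69 and 0.48 in mouse 1 and -0.11 and -0.46 in mouse 2. The 2 mice thus lay on opposite sides of 0, and its mean of 0.15 ± 0.62 (adjusted p = 0.747, limma) had the widest spread of all members. Adfp, a lipid droplet coat protein, had -0.44 ± 0.27 and did not pass.

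Entry of fatty acids into mitochondria held the lowest ratio of the group. Cpt1a, which makes the acyl-carnitines that cross the membrane and sets the rate of the pathway, gave -1.77 and -1.78 on the arrays of mouse 1 and -1.57 and -1.73 on those of mouse 2. The 4 arrays lay within a narrow range. Cpt1a fell to a mean of -1.72 ± 0.09 (adjusted p = 0.0038, limma), 3.28-fold lower, at percentile 1.04 of all genes. A second Cpt1a probe was lower too, at -1.22 in mouse 1 and -1.79 in mouse 2. Cpt2, which rebuilds acyl-CoA inside the mitochondrion, gave -0.82 and -0.71 in mouse 1 and -0.72 and -0.94 in mouse 2. It fell by a smaller amount, to -0.80 ± 0.05 (adjusted p = 0.0227, limma). The Cpt2 call was lost with either set of deposited ratios, and its ratio was -0.44 with median centring. Crat, which moves short acyl groups between carnitine and coenzyme A, gave -1.08 and -0.74 in mouse 1 and -1.19 and -0.85 in mouse 2. It fell to -0.96 ± 0.07 (adjusted p = 0.0147, limma), and every array was below 0.

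Pdk4 encodes the kinase that shuts off pyruvate use when fat is burned. It gave -1.74 and -0.35 on the arrays of mouse 1 and -0.93 and -1.15 on those of mouse 2. The arrays of mouse 1 lay far apart, yet the mouse means of -1.05 and -1.04 were nearly equal, so the SD of 0.01 understates its array error. Pdk4 fell to -1.04 (adjusted p = 0.0115, limma), and the call was lost with the mouse as a replicate block (adjusted p = 0.106) and with the organoid in Cy3 alone (-0.75). It was -2.27 in the scanner software's ratios and -2.29 in the series matrix. The organoid signal was the dimmest among the members that passed, at a log2 intensity of 7.45 in mouse 1 and 8.13 in mouse 2. It was well above background in 3 of 4 organoid channels, so Pdk4 entered the test only through the crypts.

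**Figure D2:**
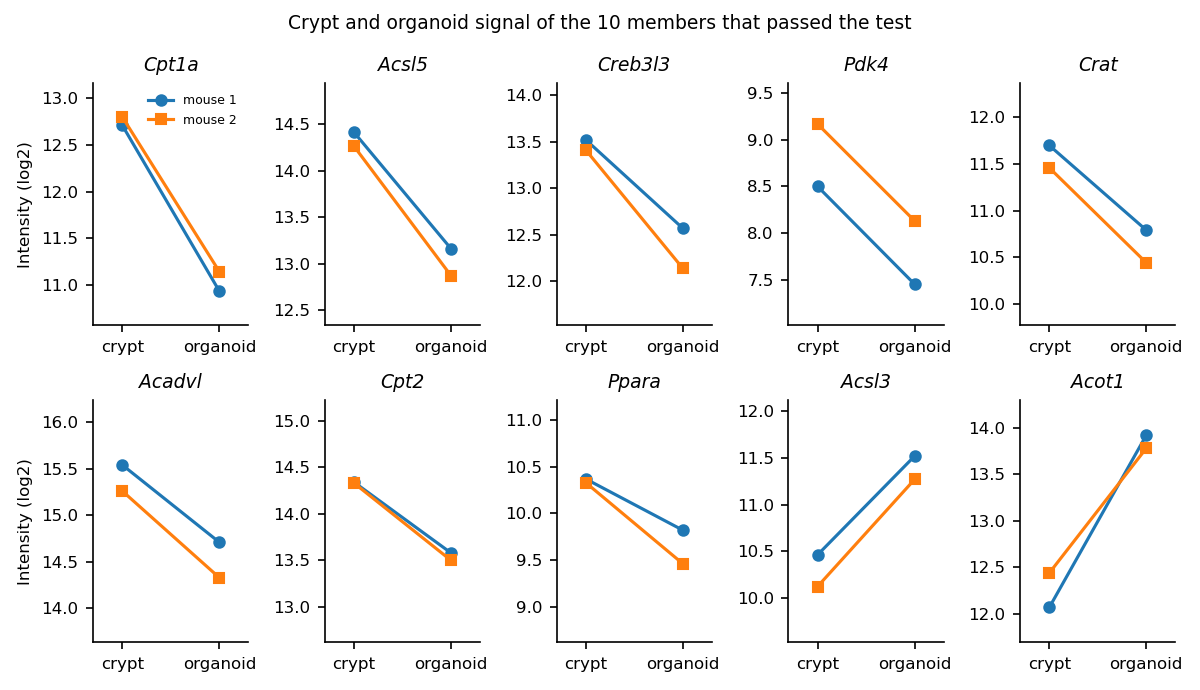
Normalised log2 intensity in crypts and organoids of mouse 1 (circles) and mouse 2 (squares) for the 10 members that passed, each panel spanning the same number of log2 units. Both lines slope down for 8 genes and up for Acsl3 and Acot1. Levels of different genes come from different probes and are not comparable.

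Among the dehydrogenases of the first oxidation step, only the one for very long chains passed. Acadvl gave -0.97 and -0.69 in mouse 1 and -0.99 and -0.87 in mouse 2, all below 0. It fell to -0.88 ± 0.07 (adjusted p = 0.0183, limma), or -0.47 with median centring. Acadl, for long chains, had -0.29 ± 0.25, and Acads, for short chains, -0.14 ± 0.07. Acadm, for medium chains, had 0.06 ± 0.05. None of these 3 passed. The difference between Acadvl and the other dehydrogenases was not tested.

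Later steps of the mitochondrial spiral did not pass, and most of their means were below 0. Hadha and Hadhb, the subunits of the trifunctional protein, had -0.50 ± 0.04 and -0.60 ± 0.14 (adjusted p = 0.0747 and 0.0549, limma). With the mouse as a replicate block Hadha passed (adjusted p = 0.0433, limma). Hadhb reached -0.78 and -0.61 in mouse 1 and -0.80 and -0.20 in mouse 2, all below 0. The auxiliary reductase for unsaturated chains, Decr1, had -0.58 ± 0.06 and the smallest adjusted p among members that did not pass (0.053, limma). Its arrays gave -0.89 and -0.36 in mouse 1 and -0.28 and -0.80 in mouse 2, so the SD understates its array error. With the mouse as a replicate block the adjusted p of Decr1 was 0.179 (limma). A second Decr1 probe gave -0.33 in mouse 1 and -0.42 in mouse 2. The electron acceptors Etfb, Etfdh and Etfa had -0.50 ± 0.11, -0.38 ± 0.07 and -0.21 ± 0.39, and Etfb passed with the replicate block (adjusted p = 0.0494, limma). Hadh, for shorter chains, had -0.13 ± 0.07, and the thiolase gene Acaa2 had -0.02 ± 0.25, with the mice on opposite sides of 0. Acot2, the mitochondrial thioesterase, had 0.07 ± 0.10.

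In all, 5 of 18 mitochondrial members fell and none rose (limma). Pdk4, among these 5, entered the test only through the crypts. Limma's unadjusted p was under 0.05 for 11 of 18, as for 27.6% of all genes, and the median was -0.50. A wider list of other mitochondrial beta-oxidation genes had 17 of 18 tested, with 1 call in each direction. That is near the share over all genes, of which 5.43% were called higher and 5.49% lower. Acadsb, for branched chains, rose (0.67 ± 0.20), the carnitine transporter gene Slc22a5 fell (-0.66 ± 0.12), and the median was -0.05. The call of Slc22a5 was lost with either set of deposited ratios, and that of Acadsb with the mouse as a replicate block.

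Fatty acid activation moved in both directions. Acsl5, the synthetase abundant in intestinal epithelium, gave -1.35 and -1.15 in mouse 1 and -1.62 and -1.16 in mouse 2. It fell to -1.32 ± 0.10 (adjusted p = 0.00675, limma), 2.49-fold lower. Acsl3, a synthetase of the endoplasmic reticulum and lipid droplets, gave 1.08 and 1.03 in mouse 1 and 0.95 and 1.34 in mouse 2. It rose by 1.10 ± 0.06 (adjusted p = 0.0102, limma), 2.14-fold higher, and its 4 arrays were on the opposite side of 0 from those of Acsl5. Acsl1, the synthetase most often tied to oxidation, had -0.33 in mouse 1 and 0.36 in mouse 2. Its mean was 0.01 ± 0.49, and its 2 other probes were at -0.22 and -0.19 and at -0.11 and 0.00 in the 2 mice.

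Acot1, a cytosolic thioesterase that frees fatty acids from coenzyme A, was the highest member. It gave 1.80 and 1.91 on the arrays of mouse 1 and 1.28 and 1.39 on those of mouse 2. All 4 arrays were above 1, and Acot1 rose by 1.59 ± 0.37 (adjusted p = 0.0084, limma), 3.02-fold higher, at percentile 99.2 of all genes. Its call was lost without the dim-probe filter. Its neighbour Acot2, encoded on the same strand of chromosome 12, gave 0.23 and 0.05 in mouse 1 and 0.05 and -0.06 in mouse 2. The files annotate each of these 2 probes to 1 transcript only. The Acot2 signal was dim, at a log2 intensity of 8.28 in crypts and 8.42 in organoids of mouse 1. Whether its ratio is compressed for that reason was not tested. Because the ratios of these neighbouring genes lay so far apart, the 100 bases before each start are given, from RefSeq build GRCm38.p6 at chr12:84009402-84009501 for Acot1 and chr12:83987761-83987860 for Acot2, both on the plus strand.

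Acot1: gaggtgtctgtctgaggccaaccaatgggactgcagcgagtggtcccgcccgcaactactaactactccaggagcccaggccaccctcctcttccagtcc
Acot2: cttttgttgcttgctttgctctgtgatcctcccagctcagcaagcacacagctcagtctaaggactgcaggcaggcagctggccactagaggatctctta

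The 250 bases before each start were aligned end to end, with gaps allowed, and identical bases were counted over the whole window. Acot1 and Acot2 shared 128 (51.2%), with 217 bases aligned. Acot1 and Acsl3, genes of different families, shared 119 (47.6%), with 224 bases aligned. No other pair from different families was aligned. For the thiolase copies Acaa1a and Acaa1b, 137 were identical (54.8%).

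None of the 5 peroxisomal members passed (limma). All 5 were below 0, and 4 had an unadjusted p under 0.05, as had 27.6% of all genes. Their median was -0.44. Pex11a, a PPAR-alpha target that promotes peroxisome division, had -0.36 and -0.51 in mouse 1 and -1.45 and -1.04 in mouse 2. It was below 0 on every array, but mouse 2 lay much lower than mouse 1, giving -0.84 ± 0.57 (adjusted p = 0.0769, limma). Acaa1a and Acaa1b, the peroxisomal thiolases, had -0.61 ± 0.37 and -0.44 ± 0.10. A second Acaa1a probe gave -0.59 in mouse 1 and -0.33 in mouse 2, also below 0. The fitted probes of these close copies are each annotated to 1 transcript in the files, and cross-hybridisation between them was not tested. The bifunctional enzymes Hsd17b4 and Ehhadh had -0.33 ± 0.05 and -0.27 ± 0.15.

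Among other peroxisomal lipid genes 20 of 24 were tested, 3 fell and 1 rose, beside 5.49% and 5.43% of all genes. Among them, Acot8, a peroxisomal thioesterase, fell to -1.03 ± 0.10, and Phyh, of phytanic acid breakdown, to -0.85 ± 0.36. Acox2, the oxidase for branched chains and bile acid precursors, rose by 1.34 ± 0.73, with 0.82 in mouse 1 and 1.85 in mouse 2. Acox2 lost its call with the organoid in Cy3 alone and without the dim-probe filter, and Phyh with either set of deposited ratios and without that filter. The 15 peroxins, which build the organelle, had a median of 0.02. None of them passed (limma, with 3 at an unadjusted p under 0.05), and the largest ratios were -0.49 ± 0.21 for Pex16 and 0.42 for Pex7, equal in both mice.

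The 2 ketone body members did not pass, and both lay below 0 on all 4 arrays. Acat1, the thiolase that joins and splits acetoacetyl-CoA in mitochondria, had -1.12 and -0.67 in mouse 1 and -0.51 and -0.20 in mouse 2, or -0.63 ± 0.38 (adjusted p = 0.0881, limma). Bdh1, which interconverts acetoacetate and beta-hydroxybutyrate, had -0.41 and -0.43 in mouse 1 and -0.55 and -0.57 in mouse 2, or -0.49 ± 0.10 (adjusted p = 0.0824, limma). With the mouse as a replicate block Bdh1 passed (adjusted p = 0.0482, limma). Its second probe was at -0.18 and -0.14.

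Of the 6 other ketone body genes, 2 rose and 1 fell, beside 5.43% and 5.49% of all genes. Bdh2, a cytosolic dehydrogenase, rose by 1.15 ± 0.08, and Aacs, which feeds acetoacetate into lipid synthesis, by 1.08 ± 0.34. The call of Bdh2 was lost with the organoid in Cy3 alone and that of Aacs without the dim-probe filter.

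Of the PPAR-alpha targets outside the 32, 22 of 25 were tested, 6 fell, 1 rose and 15 did not pass. Over all genes 5.49% fell and 5.43% rose. The median of these targets was -0.35, and 17 of the 22 were below 0, beside 45.7% of all genes. The lowest were Fabp2, the intestinal fatty acid binding protein (-2.55 ± 0.34), the fatty acid transport protein gene Slc27a4 (-1.86 ± 0.22), Vnn1, a pantetheinase (-1.46 ± 0.79), and Cidec, of lipid droplets (-1.41 ± 0.03). Vnn1 lost its call in 6 of 11 alternatives, among them the replicate block. Several of these genes are also typical of enterocytes. Among 18 nuclear receptors and coregulators, 2 fell and 3 rose, beside the same 5.49% and 5.43% of all genes. Ppargc1a, the coactivator of mitochondrial and oxidative genes, fell to -1.74 ± 0.39. The highest were Lpin1, a phosphatidate phosphatase and coactivator (1.40 ± 0.69), Foxa2 (1.10 ± 0.44) and Pparg, the lipid-storage receptor (0.97 ± 0.13). Lpin1 lay at 1.88 in mouse 1 and 0.91 in mouse 2. Lpin1 and Foxa2 each lost their call in 5 of 11 alternatives, both sets of deposited ratios among them. Ppard, the third PPAR, had -0.19 ± 0.15 (adjusted p = 0.449, limma). Its signal was dim, at a log2 intensity of 7.78 in crypts and 7.70 in organoids of mouse 1. In mouse 2 it was 7.85 and 7.55. Whether the Ppard ratio is compressed for that reason was not tested.

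**Figure D3:**
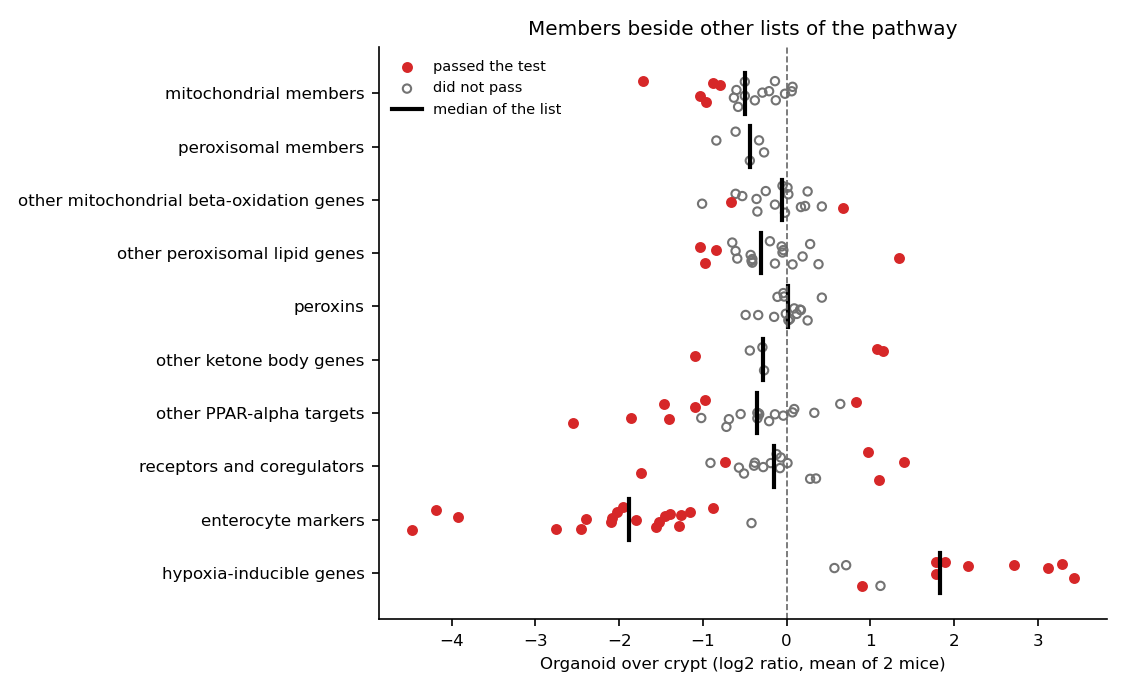
Log2 ratio of organoid over crypt, mean of 2 mice, for each tested gene of 10 lists, with genes that passed filled and list medians as bars. Mitochondrial and peroxisomal members have medians of -0.50 and -0.44, peroxins 0.02, enterocyte markers -1.88 and hypoxia-inducible genes 1.83.

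Enterocyte markers and hypoxia-inducible genes also differed between organoids and crypts. Of 20 enterocyte markers, 19 fell, beside 5.49% of all genes. Their median was -1.88, and ratios ran from -4.47 ± 0.06 for lactase (Lct) to -0.42 ± 0.10 for Slc2a5. Cubn (-4.19 ± 0.17, well above background in 3 of 4 organoid channels), Pdzk1 (-3.92 ± 0.10) and Krt20 (-2.75 ± 0.03) followed lactase. Of 12 hypoxia-inducible genes, 9 rose, beside 5.43% of all genes, and the median of the 12 was 1.83. The highest were Bnip3 (3.43 ± 0.09), Ankrd37 (3.29 ± 0.78), Egln3 (3.12 ± 0.48) and Ndrg1 (2.72 ± 0.88). The part of either list in the change of the fatty acid oxidation genes was not tested.

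Dye orientation was checked for every member. With the organoid in Cy5 alone 2 members passed higher and 11 lower (40.6% of members, beside 14.1% of all genes). With the organoid in Cy3 alone 2 passed higher and 7 lower (28.1%, beside 5.84% of all genes). The sign of the 10 members that passed was kept in each orientation. They were called on the mean of these same arrays, so the kept sign is not a separate check. Acads and Acadm had opposite signs in the 2 orientations in both mice, as did 6.81% of all genes.

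**Figure D4:**
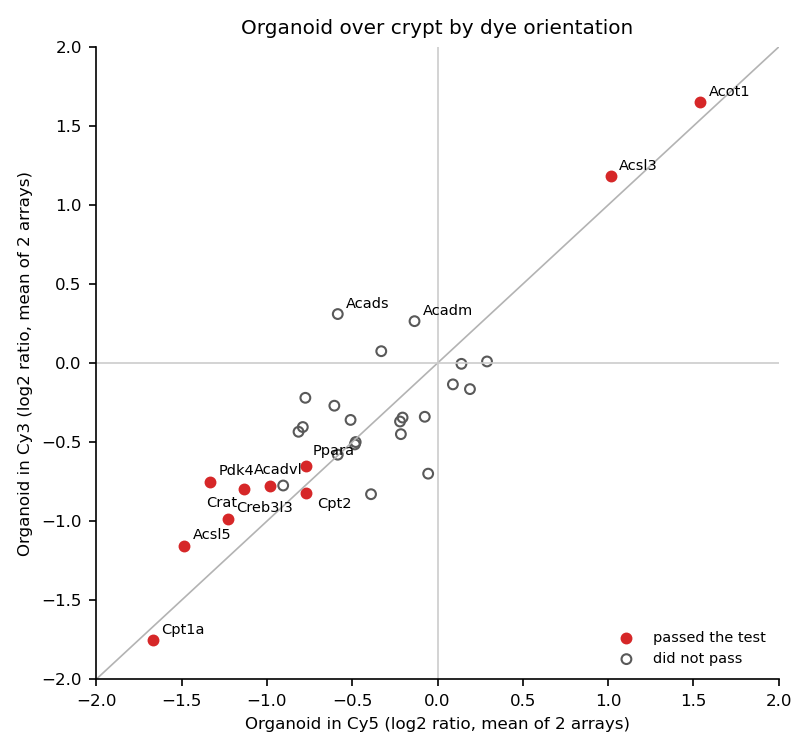
Log2 ratio of organoid over crypt for the 32 members with the organoid in Cy5 (x axis) and in Cy3 (y axis), each the mean of 2 arrays; the diagonal marks equal values. The 10 filled points passed the test and have the same sign on both axes, and Acads and Acadm lie left of 0 and above 0.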

How the data were processed

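The authors deposited 4 two-colour Agilent scanner files with mean spot intensity and local background on a linear scale, outlier and background marks, and a log10 ratio of Cy5 over Cy3. Feature Extraction is version 10.2.1.3 per the file headers and version 9.5.3 per the submitters' processing notes. The authors' deposited series matrix holds log2 ratios; their scale and direction were found by comparison with the scanner ratios (r from 0.978 to 0.991), each column has a median of 0, and how they were centred is unknown. RNA isolation is by Trizol in the labels and by an RNeasy kit in the design text. All 4 arrays share 1 slide and scan, so no batch could be compared. Arrays had a median signal between 161 and 178 for Cy3 and between 266 and 312 for Cy5. The number of arrays limits the precision.

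The analysis used limma 3.58.1 in R 4.3.3, with normexp background correction (offset 50). Arrays were normalised by loess with controls at weight 0. Spots with an outlier mark were dropped and spots of a probe averaged. The dye labels set the direction, organoid over crypt, and both arrays of a mouse were averaged. A probe was tested if well above background on all 4 channels of crypts or of organoids, and the brightest probe stood for a gene. Genes were named by RefSeq accession where matched (24844 of 41174 probes), otherwise as in the files. Mouse means were tested against 0 (two-sided, 1 residual degree of freedom) with Benjamini-Hochberg adjustment over 15538 genes. Both arrays of a number carry the same mouse, which pairs them: their ratios correlated across genes with r = 0.837 and 0.850. For the replicate block, the correlation within a mouse (0.587) came from a moment estimate, because limma's own could not be computed.

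Members and lists were chosen with earlier results of these data known. All members are accounted for. Named from the other lists are up to 4 genes past the test with the largest ratios, or the 2 largest where none passed, and always Ppard and Ppargc1a. Some genes that this rule names are not reported here. Krt19, Olfm4 and Slc2a5 are also named, chosen after their values were seen.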

Additional observations from a re-analysis of the deposited data

Results flagged for a closer look

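Acads and Acadm were singled out because their organoid over crypt ratio had opposite signs in the 2 dye orientations, in both mice. Acads was at -0.58 with the organoid in Cy5 and 0.31 with the organoid in Cy3, a difference of -0.89. Acadm was at -0.13 and 0.26, a difference of -0.39. The dye term was not called for either gene (adjusted p = 0.788 for both, limma with all 4 arrays). It was called for 0 of 15538 genes in the same limma fit, of which 957 had an unadjusted p under 0.05.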

How the results depend on the processing

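The main counts were 1697 genes, 2 members higher and 8 lower, and a members' median of -0.46. With median centring these were 224, 0, 0 (limma, 10 of 10 called members with the same sign) and -0.12. Without the dim-probe filter 677 genes (2.37% of those tested) and 1 higher member passed. With the organoid in Cy3 alone 908 genes (5.84%) passed. With 4 arrays and a dye effect 3709 genes (23.9%) and 19 lower members passed. The cause was not tested, except that the last fit treats both arrays of a mouse as separate samples. With the mouse as a replicate block, 2006 genes (12.9%), 2 higher and 10 lower members passed. Among members the block ended the call of Pdk4 (adjusted p = 0.106, limma) and added Hadha (0.0433), Etfb (0.0494) and Bdh1 (0.0482). Among other named genes it ended the calls of Acadsb, Vnn1, Cd3g and Cd52. Without replicate 1 or 2 in turn the median ranged from -0.48 to -0.37, with no test because no residual degree of freedom remained. The 10 called members kept their sign in all 11 alternatives, which reuse the arrays that they were called on. With 2 mice, a miss of the threshold does not show equal expression, and probes near background, such as that of Pdk4, have compressed ratios.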
